A study of Arabidopsis thaliana with 12 samples.

Results

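Genes for arabinogalactan proteins (AGPs) and fasciclin-like arabinogalactan proteins (FLAs) of Arabidopsis thaliana were followed through 4 genotypes at 27 °C. The 40 members were set by locus as 10 classical AGPs, 3 lysine-rich AGPs, 11 AG peptides, 2 chimeric AGPs and 14 FLAs. All 40 were among the 23387 genes of the deposited table, and 38 reached 1 TPM, a length-scaled share of each library's transcripts, in at least 3 of the 12 libraries and were tested. Membership used no expression value, but the family was chosen by its TPM values across these 4 genotypes, with earlier results of the 12 libraries known. The counts and p-values describe these libraries and are not independent evidence. RNA was taken from seedlings aged 7 days that grew in short days at 21 °C and then spent 12 h at 27 °C, with 3 libraries per genotype. The genotypes were h3.3kd (h3.3kd-1 in the genotype field), h2a.z, their combination h3.3kd;h2a.z (the combined line), and the wild type Col. The names refer to the histone variants H3.3 and H2A.Z. Further alleles, the way H3.3 was lowered and the cells in which this acts are not stated in those labels or in the processing notes. Every library came from warmed seedlings, so the values compare genotypes at 27 °C and not a response to warmth.

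AGPs are glycoproteins of the cell wall and plasma membrane whose hydroxyproline-rich backbone carries large arabinogalactan chains, and many are held at the outer face of the membrane by a GPI anchor. AG peptides have a very short backbone, lysine-rich AGPs have a short basic stretch, chimeric AGPs carry a further domain, and FLAs carry fasciclin domains that are linked to cell adhesion. Members of the family are known for parts in cell expansion, root growth, reproduction and secondary walls. H3.3 and H2A.Z take the place of the canonical histones H3 and H2A in some nucleosomes.

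The targeted genes were read first. The summed TPM of 3 H3.3 genes (AT4G40030, AT4G40040 and AT5G10980) ranged from 105.8 to 178.5 in h3.3kd, 783.6 to 872.6 in h2a.z, 108.5 to 141.3 in h3.3kd;h2a.z and 1041 to 1290 in Col. That of 3 H2A.Z genes (AT2G38810, AT1G52740 and AT3G54560) ranged from 176.7 to 333.6 in h3.3kd, 32.92 to 37.38 in h2a.z, 80.82 to 97.43 in h3.3kd;h2a.z and 266.6 to 406.4 in Col. The H3.3 sum in h2a.z lay below every Col library, and AT4G40040 and AT5G10980 fell there by 0.65 and 0.49 (log2 fold change, adjusted p = 0.0145 and 0.0452 in limma). In h3.3kd AT2G38810, listed at 0 in 4 libraries, fell by 0.70 (adjusted p = 0.0399), a call that ended in 17 of 22 alternatives (0.0199 to 0.244). The h2a.z call of AT5G10980 ended in 13 of 21 alternatives (0.013 to 0.179) and that of AT4G40040 in 2 of 21 (0.00557 to 0.059). Libraries lay 0.183 to 0.405 from their genotype's mean as a root mean square on the log2(TPM + 1) scale, with h3.3kd 2 at 0.405, h3.3kd 1 at 0.324 and Col 1 at 0.314 the farthest. Each result was also computed without Col 1 and h3.3kd 2 together, the farthest library of each of these genotypes. All 17 root markers and all 6 green tissue markers were expressed. TPM keeps no depth, so the reads behind each value are not known. Separate cultures are not stated, so p-values measure only the spread between these samples, which may be technical.

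Together the 40 members held 0.234% to 0.276% of TPM in h3.3kd, 0.519% to 0.605% in h2a.z, 0.276% to 0.309% in h3.3kd;h2a.z and 0.468% to 0.537% in Col. Their summed level averaged 2573.6 ± 213 TPM in h3.3kd, 5655.8 ± 435 in h2a.z, 2950.7 ± 168 in the combined line and 4924.3 ± 384 in Col (SD, n = 3 each). All 3 h3.3kd and all 3 h3.3kd;h2a.z sums were below every Col sum, while h2a.z and Col overlapped. In Col the AG peptide AGP15 was the highest at 679.6 TPM on average, before FLA8 at 507.2, FLA9 at 482.9, the classical AGP9 at 422.5 and the AG peptide AGP12 at 397.7. These 5 genes held 50.6% of the summed level in Col, and the ranges of the neighbours in this order overlapped. In h2a.z the order opened with AGP15 at 804.6, FLA9 at 702.5 and AGP12 at 539.5 TPM. FLA8 led in h3.3kd at 411.4 and in the combined line at 489 TPM. AGP4, also called JAGGER and known for keeping extra pollen tubes from the ovule, never passed 0.9883 TPM and was listed at 0 in 6 libraries. AGP21, known in root hair patterning, was listed at 0 in 11 libraries and had 0.5035 TPM in h3.3kd 3.

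**Figure D1:**
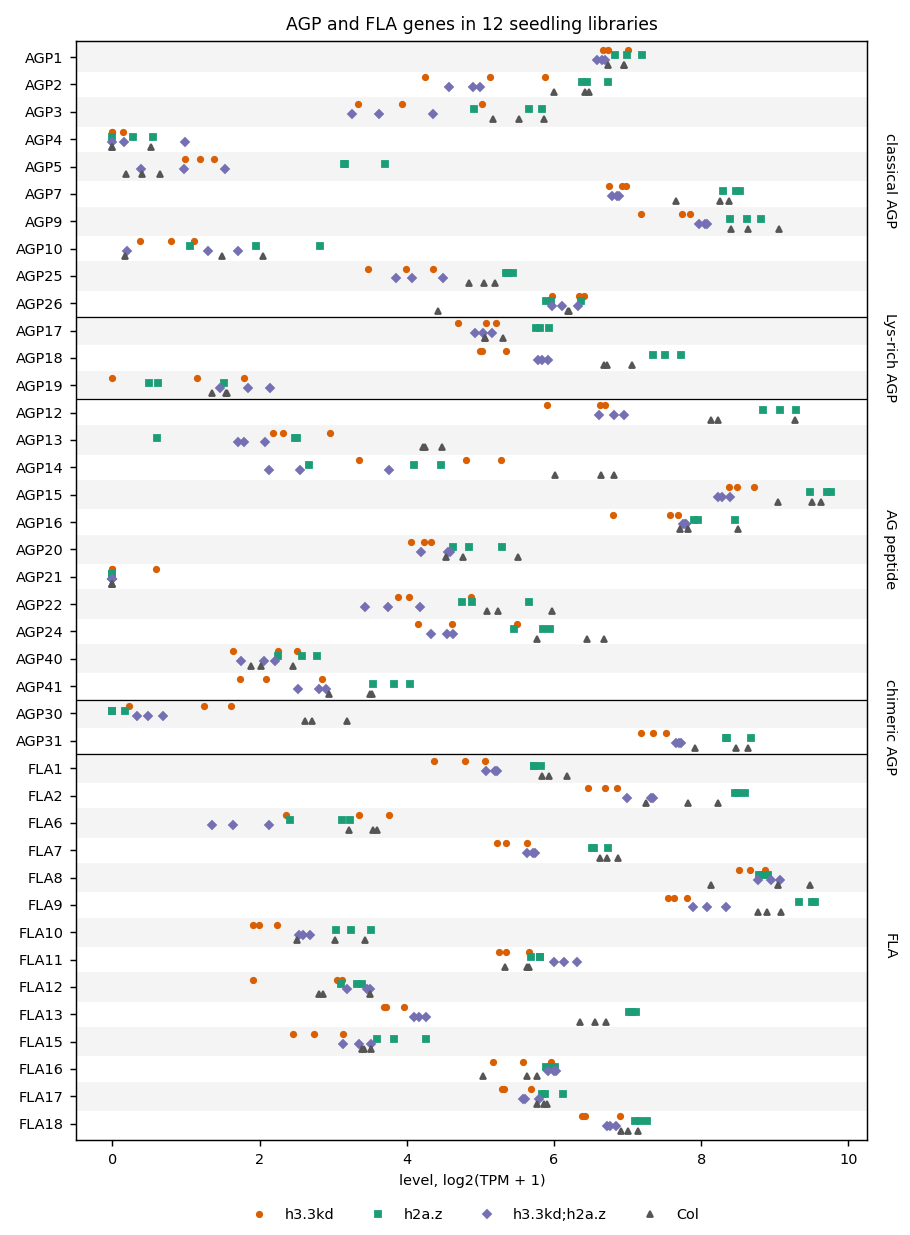
Level of each member in every library, with log2(TPM + 1) across, 1 gene per row and 3 points per genotype. AGP15, FLA8 and FLA9 lie at the right end, and FLA13, AGP12 and AGP18 have their h3.3kd and h3.3kd;h2a.z points apart from those of h2a.z and Col.

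In h3.3kd seedlings most of the listed AGP and FLA genes had lower transcript levels than in Col. Of the 38 members tested, 24 (63.2%) fell and 0 rose, against 11.9% of all 19937 tested genes that fell and 5.41% that rose. The test was limma on log2(TPM + 1), with Benjamini-Hochberg adjustment across every tested gene, with calls at adjusted p under 0.05. At an unadjusted p under 0.05 it gave 26 lower and 1 higher. Fold changes are on this scale, which understates the change of low genes. The median log2 fold change was -0.97 over the members and -0.12 over all genes, and 34 of the 38 values were negative. The calls took in 5 of 9 classical AGPs, 1 of 3 lysine-rich AGPs, 8 of 10 AG peptides, both chimeric AGPs and 8 of 14 FLAs. FLA13, AGP12, AGP14, AGP13 and AGP30 changed most. AGP30 reached the level for testing only through its Col libraries, where it was high. Quantile normalization put the median of all genes at 0.02, with 22 members lower, 1 higher and a member median of -0.85. Over all genes 1079 were higher and 2371 lower, against 1649 and 1473 after quantile normalization and 1733 and 1880 after median ratio rescaling, which left 21 members lower and 0 higher.

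The count in h3.3kd moved with the libraries and the model. It ranged from 18 to 24 when 1 library was left out. In a fit of h3.3kd and Col alone, without a block, it was 16, and 784 of all 19937 tested genes were lower there. Without Col 1 the AG peptides lower were 4, and without h3.3kd 1 they were 5. Without Col 2 the FLAs lower were 5. Deviations from the genotype mean correlated at 0.115 to 0.314 in same-numbered h3.3kd and Col libraries, and at -0.176 to 0.158 in other pairs of genotypes. A fit with the replicate number as a block was therefore set beside the main one. It gave 26 members lower in the model of 4 genotypes, and 18 where the other genotypes were left out. The 6 members not called there were AGP20, AGP22, AGP41, FLA10, FLA15 and FLA18, with adjusted p of 0.12, 0.051, 0.11, 0.084, 0.17 and 0.082.

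Root markers were also lower in this comparison. Of 17, 7 fell and 0 rose (12 lower and 0 higher at an unadjusted p under 0.05 in limma), with a median log2 fold change of -0.82. Among all genes 11.9% fell and 5.41% rose, with a median of -0.12. With 1 library left out the count of 7 ranged from 2 to 10. The count was 2 without Col 1, 4 without Col 3, 3 without h3.3kd 1 and 4 without Col 1 and h3.3kd 2 together. It was 1 in a fit of those genotypes alone, 4 with the block in that fit and 2 after quantile normalization. Their summed level ranged from 113.66 to 229.85 TPM in h3.3kd and from 257.27 to 338.3 TPM in Col. The transcription factor gene MYB66, also called WEREWOLF, which sets non-hair cell fate in the root epidermis, fell by 1.37 (log2 fold change, adjusted p = 0.00369). PLT1, PLT2, WOX5 and RHD6 were listed at 0 in 1 library each, and no other root marker was at 0. None of 6 green tissue markers was called (1 higher at an unadjusted p under 0.05), with sums of 33092 to 40440 TPM in h3.3kd and 30364 to 38863 TPM in Col. In bulk seedlings, fewer cells of a type and less RNA per cell cannot be told apart, and the part of tissue makeup in the members' values was not tested.

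In h2a.z seedlings 29 of the 38 members were not called, and those that changed went both ways. In all, 6 members (15.8%) rose and 3 (7.89%) fell, against 10.5% and 4.56% of all genes. The members that rose were the classical AGP5, the lysine-rich AGP17 and AGP18, and FLA2, FLA9 and FLA13. Those that fell were the AG peptides AGP13 and AGP14 and the chimeric AGP30, which was tested only through its Col libraries. With 1 library left out the count higher was 3 to 6, at 3 without h2a.z 2 and 4 without h2a.z 3, and the count lower was 3 throughout. The median log2 fold change was 0.22 over the members and 0.05 over all genes, but 0.12 and 0.07 without Col 1. All genes split into 2100 higher and 909 lower, against 1896 and 1578 after quantile normalization, where the members were again 6 higher and 3 lower. Root markers had summed levels of 338.76 to 382.9 TPM in h2a.z and 257.27 to 338.3 TPM in Col, and 2 of 17, IRT1 and PHT1;1, rose. Both calls ended without Col 1, without Col 2, without Col 3, without h2a.z 2 or without h2a.z 3, and 1 of them ended without h2a.z 1 or without combined-line library 3. The part of root tissue in the members' values was not tested.

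The combined line showed lower members as well. Against Col, 19 of 38 (50%) fell and 1 (2.63%) rose, beside 12.6% and 6.17% of all genes. The count of calls ranged from 17 to 21 with 1 library left out. The median log2 fold change was -0.62 over the members and -0.10 over all genes. All genes split into 1230 higher and 2508 lower, against 1833 and 1820 after quantile normalization and 1821 and 2153 after median ratio rescaling, and the members into 1 higher and 19 lower and 2 higher and 18 lower under these scalings. The calls that fell took in 5 of 9 classical AGPs, 1 of 3 lysine-rich AGPs, 6 of 10 AG peptides, both chimeric AGPs and 5 of 14 FLAs. The chimeric AGP30 was tested only through its Col libraries. Without combined-line library 1 the classical count was 3. The member that rose was FLA11. Of 17 root markers 9 fell, and 6 to 10 when a library was left out. Root marker sums were 169.51 to 182.87 TPM in h3.3kd;h2a.z against 257.27 to 338.3 TPM in Col. Of 6 green tissue markers LHCA1 rose, a call that ended in 12 of 21 alternatives (adjusted p of 0.0042 to 0.134), among them each library left out except Col 1, h3.3kd 1 and h3.3kd 2. Their sums were 39594 to 40904 TPM in h3.3kd;h2a.z against 30364 to 38863 TPM in Col, and the part of tissue makeup was again not tested. The 3 comparisons share the Col libraries, so their values stand side by side and no overlap between them is given.

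**Figure D2:**
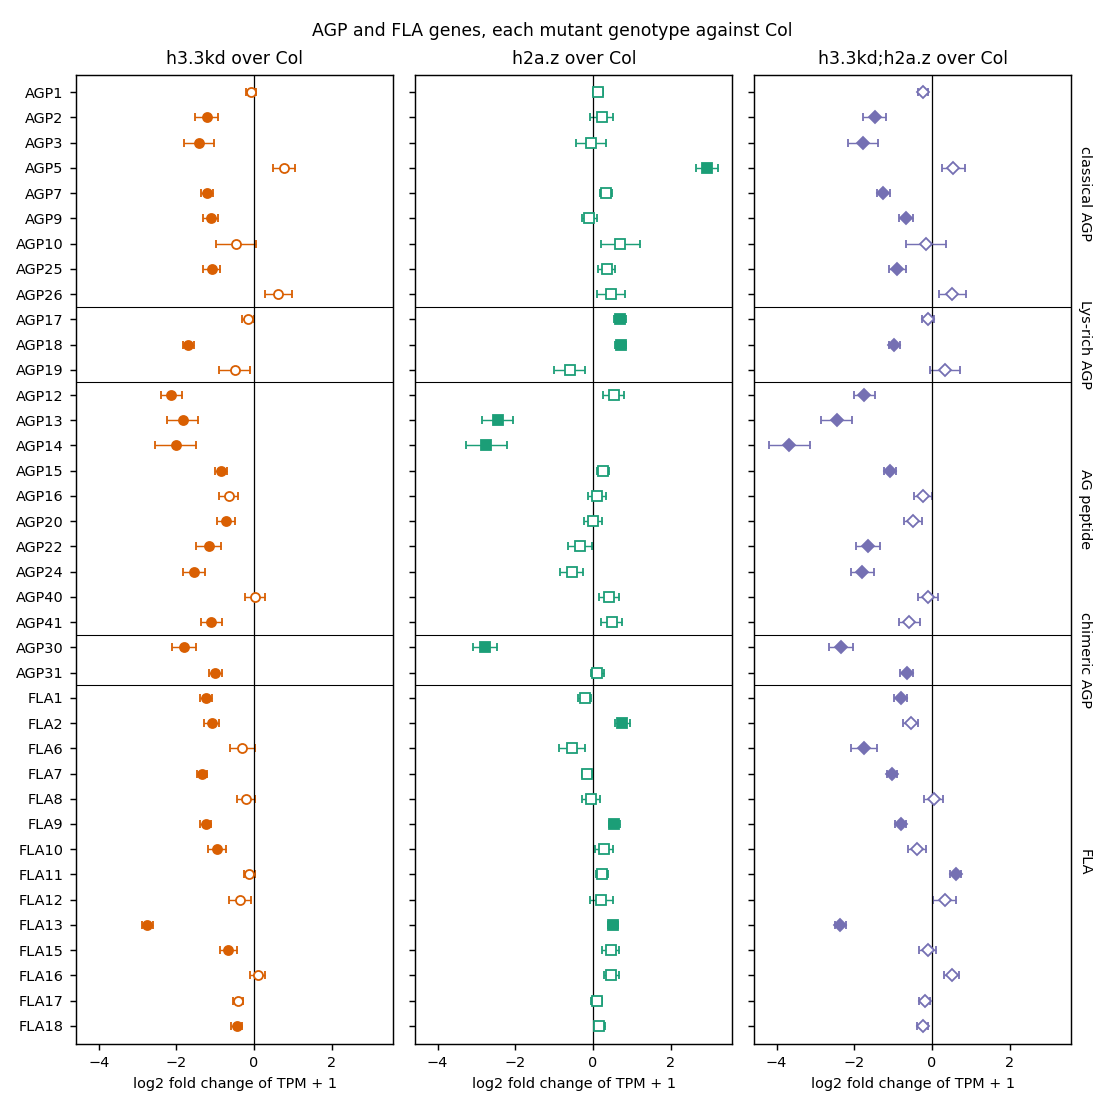
Log2 fold change over Col of the 38 tested members, with panels for h3.3kd, for h2a.z and for h3.3kd;h2a.z, bars for the standard error of the fit and filled points for an adjusted p under 0.05. FLA13 lies at -2.75 in h3.3kd, 0.52 in h2a.z and -2.36 in h3.3kd;h2a.z, and AGP14 reaches -3.68 in h3.3kd;h2a.z.

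Among the FLAs, FLA13 (AT5G44130) had the largest fold change in h3.3kd and also in h3.3kd;h2a.z. It had 12.2, 11.9 and 14.7 TPM in h3.3kd, 128, 137 and 132 in h2a.z, 16.9, 16.2 and 18.2 in the combined line, and 80.6, 104 and 92.8 in Col. The h3.3kd and combined-line libraries lay far below every Col library, the h2a.z libraries lay above, and no genotype overlapped another. Relative to Col the log2 fold change was -2.75 ± 0.13 (SE), adjusted p = 4.39e-08 in h3.3kd, or 13.96% of the Col mean. In the combined line it was -2.36 ± 0.13 (SE), adjusted p = 5.93e-08, or 18.5%. In h2a.z it was 0.52 ± 0.13 (SE), adjusted p = 0.0148. The h2a.z call of FLA13 ended when Col 1 (0.056), h2a.z 2 (0.068) or h2a.z 3 (0.051) was left out, with adjusted p from 0.00717 to 0.068 over the 21 alternatives.

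FLA9 (AT1G03870), the highest FLA in h2a.z, had 187, 196 and 224 TPM in h3.3kd, 744, 724 and 639.8 in h2a.z, 237, 269 and 322 in the combined line, and 435, 542 and 473 in Col. Here too h3.3kd and the combined line lay below Col and h2a.z above it, with no overlap with Col. The log2 fold change was -1.25 ± 0.14 (SE), adjusted p = 5.79e-05 in h3.3kd and 0.54 ± 0.14 (SE), adjusted p = 0.0148 in h2a.z. The combined line stood at -0.81 (adjusted p = 0.000961). The h2a.z call of FLA9 ended when h2a.z 1 (0.056) or h2a.z 2 (0.062) was left out, with adjusted p from 0.00583 to 0.0623 over the 21 alternatives. FLA2 (AT4G12730) had 86.9, 102 and 115 TPM in h3.3kd, 351, 384 and 361 in h2a.z, 126, 158 and 161 in the combined line, and 151, 298 and 225 in Col. All h2a.z libraries exceeded all Col libraries, and all h3.3kd libraries lay below them, while the combined line overlapped Col. The log2 fold change of FLA2 was -1.10 in h3.3kd (adjusted p = 0.0021) and 0.75 ± 0.20 (SE), adjusted p = 0.0173 in h2a.z. Without Col 1 the h2a.z value was 0.50, and that call ended when Col 1 (0.057), h2a.z 2 (0.069) or h2a.z 3 (0.052) was left out, with adjusted p from 0.00272 to 0.0686 over the 21 alternatives. FLA2 in the combined line was at -0.55 and not called, but called at -0.80 without Col 1 (adjusted p = 0.00455).

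FLA7 (AT2G04780) had 36.5, 39.7 and 48.4 TPM in h3.3kd, 105, 90.6 and 91.9 in h2a.z, 48.5, 51.7 and 52.5 in the combined line, and 104, 116 and 97.8 in Col. It was lower than every Col library in each h3.3kd and combined-line library, and its h2a.z range overlapped Col. Its log2 fold change was -1.34 ± 0.13 (SE), adjusted p = 1.97e-05 in h3.3kd. Seedlings of the combined line had -1.04 (adjusted p = 8.31e-05). FLA1 (AT5G55730), known in shoot formation from tissue culture, had 26.6, 32.4 and 19.8 TPM in h3.3kd, 52.2, 52.2 and 55.7 in h2a.z, 32.8, 36.3 and 35.8 in the combined line, and 59.97, 71.01 and 56.1 in Col. Its h3.3kd and combined-line libraries lay far below Col and its h2a.z libraries just below, at 42.1% of the Col mean in h3.3kd (adjusted p = 0.000201) and at a log2 fold change of -0.81 in the combined line (adjusted p = 0.00303).

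FLA11 (AT5G03170), known for a part in secondary walls of stems, went the other way in the combined line. It had 39.6, 37.2 and 49.5 TPM in h3.3kd, 50.3, 55.3 and 55.1 in h2a.z, 63.2, 69.4 and 78.8 in the combined line, and 39.4, 48.5 and 49.3 in Col. Every combined-line library lay above all 9 other libraries, and h3.3kd overlapped Col. The log2 fold change in the combined line was 0.61 ± 0.14 (SE), adjusted p = 0.00836 relative to Col, and that call ended when combined-line library 3 (0.051) was left out, with adjusted p from 0.00443 to 0.051 over the 21 alternatives. FLA12 (AT5G60490), its close relative with the same known role, ranged from 2.76 to 10.3 TPM over the 12 libraries and was not called against Col. FLA6 (AT2G20520) had 4.15, 12.5 and 9.16 TPM in h3.3kd, 8.40, 7.66 and 4.31 in h2a.z, 3.38, 1.55 and 2.11 in the combined line, and 11.1, 8.31 and 10.6 in Col. The combined line lay below the 9 other libraries, at 23.4% of the Col mean and a log2 fold change of -1.75 ± 0.33 (SE), adjusted p = 0.00213.

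Genes of secondary walls and xylem were read beside FLA11. In the combined line 7 of 14 rose and 0 fell against Col, beside 6.17% and 12.6% of all genes. At an unadjusted p under 0.05 limma gave 8 higher and 0 lower. The count higher was 3 to 8 with 1 library left out and 6 to 9 under the other alternatives. It was 3 without Col 1 and 3 without any 1 of the combined-line libraries. CESA4, a cellulose synthase gene of secondary walls, rose by 1.13 (log2 fold change, adjusted p = 0.0015), the laccase gene LAC17, which acts in lignin formation, by 1.01 (adjusted p = 0.00126), and IRX3, another such cellulose synthase gene, by 0.82 (adjusted p = 0.00886). None was called in h3.3kd or in h2a.z (2 higher and 1 lower in h3.3kd and 1 higher in h2a.z at an unadjusted p under 0.05), but without h3.3kd 1 the counts in h3.3kd were 5 higher and 1 lower. The list's summed level ranged from 344.93 to 489.73 TPM in h3.3kd, 373.84 to 442.94 in h2a.z, 492.46 to 532.24 in h3.3kd;h2a.z and 351.33 to 408.39 in Col. Its part in the level of FLA11 was not tested.

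The remaining FLAs were called against Col in h3.3kd or not at all. FLA10 (AT3G60900) averaged 3.15 TPM in h3.3kd and 7.23 in Col, and fell with an adjusted p of 0.0135. The FLA10 call ended when Col 2 (0.055) was left out, after quantile normalization (0.11), in a fit of those genotypes alone (0.097) and with the block and those genotypes alone (0.084), with adjusted p from 0.00188 to 0.109 over the 22 alternatives. FLA15 (AT3G52370) and FLA18 (AT3G11700) fell in h3.3kd with adjusted p of 0.0476 and 0.039, and their log2 fold changes were -0.67 and -0.45. The FLA15 call ended in 14 of 22 alternatives (0.0122 to 0.168), among them each library left out except h2a.z 1, h2a.z 3 and h3.3kd 2. The FLA18 call ended in 12 of 22 (0.00119 to 0.177), among them each library left out except Col 1, h2a.z 1 and h3.3kd 2. FLA8 (AT2G45470), the highest FLA in Col, had 365, 465 and 404 TPM in h3.3kd and 281, 713 and 528 TPM in Col. Its Col libraries spanned the h3.3kd values, with Col 1 the lowest, and without Col 1 it was called lower at -0.58 (adjusted p = 0.0249). FLA16 (AT2G35860), known in stem mechanics, and FLA17 (AT5G06390) ranged over 31.8 to 64.3 and 38.04 to 68.7 TPM, and neither was called against Col. FLA16 was called higher in the combined line after median ratio rescaling (0.60, adjusted p = 0.0384), with the replicate block (0.50, adjusted p = 0.0451) and without h3.3kd 2 (0.50, adjusted p = 0.0479). FLA17 was called lower in h3.3kd without h3.3kd 2 (-0.54, adjusted p = 0.00938) and with the replicate block (-0.41, adjusted p = 0.0337). The same held after quantile normalization (-0.39, adjusted p = 0.0491) and without Col 1 and h3.3kd 2 together (-0.58, adjusted p = 0.00858).

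Of the classical AGPs, 5 fell in h3.3kd. AGP7 (AT5G65390) had 107, 120.2 and 125 TPM in h3.3kd, 368, 354 and 312 in h2a.z, 109.8, 115 and 117 in the combined line, and 201, 331 and 305 in Col. Its h3.3kd and combined-line values lay close together, below every Col library, and the h2a.z range overlapped Col. On the log2 scale its fold change was -1.21 in h3.3kd (adjusted p = 0.000216) and -1.25 in the combined line (adjusted p = 0.000102). AGP9 (AT2G14890) had 144, 228 and 212 TPM in h3.3kd, 447, 335 and 392 in h2a.z, 249, 268 and 263 in the combined line, and 339, 533 and 395 in Col. Both lines with lowered H3.3 lay below Col without overlap. AGP9 stood at 46.1% of the Col mean in h3.3kd (adjusted p = 0.00134). Its adjusted p in the combined line was 0.022, and that call ended when Col 2 (0.087), combined-line library 1 (0.074), combined-line library 2 (0.057) or combined-line library 3 (0.062) was left out, with adjusted p from 0.00555 to 0.0873 over the 21 alternatives.

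AGP3 (AT4G40090) had 9.16, 14.3 and 31.6 TPM in h3.3kd, 56.3, 49.6 and 29.1 in h2a.z, 11.3, 8.57 and 19.4 in the combined line, and 45.2, 34.9 and 57.2 in Col. The combined line lay below Col without overlap, as did h3.3kd, whose library 3 came closest. This gave a log2 fold change of -1.42 ± 0.38 (SE), adjusted p = 0.0205 in h3.3kd and -1.77 ± 0.38 (SE), adjusted p = 0.00487 in the combined line. The h3.3kd call of AGP3 ended when Col 1 (0.057), Col 3 (0.07) or h3.3kd 1 (0.071) was left out, in a fit of those genotypes alone (0.078) and without Col 1 and h3.3kd 2 together (0.075), with adjusted p from 0.00322 to 0.0776 over the 22 alternatives. AGP2 (AT2G22470) had 33.9, 17.96 and 57.8 TPM in h3.3kd, 106, 86.5 and 82.6 in h2a.z, 30.99, 28.8 and 22.9 in the combined line, and 88.4, 62.9 and 84.8 in Col. The 3 h3.3kd values were spread widely but stayed below every Col value. AGP2 fell by 1.22 in h3.3kd (log2 fold change, adjusted p = 0.0125), by 0.80 without h3.3kd 2 (adjusted p = 0.0218), and was not called in a fit of those genotypes alone (0.093, within 0.00105 to 0.093 over the 22 alternatives). In the combined line its log2 fold change was -1.48 ± 0.30 (SE), adjusted p = 0.00312. AGP25 (AT5G18690) had 14.9, 10.1 and 19.5 TPM in h3.3kd, 42.5, 39.7 and 40.4 in h2a.z, 13.5, 15.8 and 21.6 in the combined line, and 32.2, 27.9 and 35.9 in Col. The h3.3kd and combined-line ranges lay below Col and the h2a.z range above it. It was at 46.5% of the Col mean in h3.3kd (adjusted p = 0.00354). In the combined line the adjusted p was 0.00925, and 0.051 without combined-line library 1, within 0.00209 to 0.0513 over the alternatives.

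AGP5 (AT1G35230) was low in Col and highest in h2a.z. It had 1.61, 1.29 and 0.990 TPM in h3.3kd, 7.99, 12.1 and 7.89 in h2a.z, 0.961, 1.90 and 0.311 in the combined line, and 0.568, 0.325 and 0.141 in Col. All h2a.z libraries exceeded the 9 others, and every h3.3kd library exceeded every Col library. The log2 fold change was 2.93 ± 0.29 (SE), adjusted p = 8.44e-06 in h2a.z. In h3.3kd it was 0.78 ± 0.29 (SE), adjusted p = 0.0774 and not called, but called with a pseudocount of 0.1 (adjusted p = 0.0452) and after quantile normalization (adjusted p = 0.0239). The remaining classical AGPs were not called against Col in any of the 3 genotypes. AGP1 (AT5G64310) ranged from 94.6 to 145 TPM over the 12 libraries, AGP10 (AT4G09030) from 0.130 to 6.07 TPM. AGP26 (AT2G47930) had 61.5, 83.8 and 79.8 TPM in h3.3kd and 20.4, 72.9 and 72.3 TPM in Col, where Col 1 stood apart from the other two.

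The lysine-rich AGP18 (AT4G37450), known for a part in megaspore selection in the ovule, separated all 4 genotypes. It had 30.9, 31.4 and 39.8 TPM in h3.3kd, 211, 181 and 161 in h2a.z, 59.6, 54.2 and 56.1 in the combined line, and 102, 132 and 104 in Col. The h3.3kd libraries were lowest, followed by the combined line, Col and h2a.z, with no overlap. Its log2 fold change was -1.70 ± 0.15 (SE), adjusted p = 8.46e-06 in h3.3kd. It was 0.71 ± 0.15 (SE), adjusted p = 0.00377 in h2a.z and -0.97 in the combined line (adjusted p = 0.000377). AGP17 (AT2G23130), known from a mutant whose roots resist Agrobacterium, had 24.9, 36.02 and 32.6 TPM in h3.3kd, 60.3, 52.8 and 54.9 in h2a.z, 31.7, 34.8 and 29.4 in the combined line, and 32.5, 38.5 and 32.4 in Col. The h2a.z libraries lay above all others, with a log2 fold change of 0.69 ± 0.15 (SE), adjusted p = 0.0057, while h3.3kd and the combined line overlapped Col. AGP19 (AT1G68725), known in plant growth, ranged from 0 to 3.41 TPM, with h3.3kd 2 listed at 0, and was not called.

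Among the AG peptides, AGP12 (AT3G13520) had 97.5, 59.2 and 102 TPM in h3.3kd, 623, 538 and 457 in h2a.z, 96.96, 111 and 123 in the combined line, and 617, 298 and 279 in Col. The h3.3kd and combined-line values lay below every Col library, and Col 1 stood at the h2a.z level. On the log2 scale its fold change was -2.13 ± 0.27 (SE), adjusted p = 0.000147 in h3.3kd and -1.75 ± 0.27 (SE), adjusted p = 0.000422 in the combined line. In h2a.z it was 0.53 and not called (adjusted p = 0.227), but 0.89 and called without Col 1 (adjusted p = 0.0118). AGP15 (AT5G11740), the highest member in Col, had 357, 420.4 and 332 TPM in h3.3kd, 832, 870.3 and 711 in h2a.z, 299.9, 309 and 335 in the combined line, and 787, 725 and 527 in Col. It was at 54.4% of the Col mean in h3.3kd (adjusted p = 0.00198) and fell by 1.09 on the log2 scale in the combined line (adjusted p = 0.000224). Both lines lay below Col without overlap.

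AGP14 (AT5G56540), known for a part in root hair length, was lower than Col in each of the other genotypes. It had 9.17, 26.8 and 37.8 TPM in h3.3kd, 21.03, 16.1 and 5.37 in h2a.z, 4.86, 3.36 and 12.5 in the combined line, and 112, 63.5 and 99.1 in Col. No library of the other genotypes reached the lowest Col value. This gave a log2 fold change of -2.02 ± 0.53 (SE), adjusted p = 0.0178 in h3.3kd and -2.75 ± 0.53 (SE), adjusted p = 0.00232 in h2a.z. For the combined line it was -3.68 ± 0.53 (SE), adjusted p = 0.000249, or 7.57% of the Col mean. The h3.3kd call of AGP14 ended when Col 1 (0.067) or h3.3kd 1 (0.062) was left out and without Col 1 and h3.3kd 2 together (0.052), with adjusted p from 0.0115 to 0.0667 over the 22 alternatives.

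AGP13 (AT4G26320) had 3.99, 3.53 and 6.76 TPM in h3.3kd, 4.67, 4.57 and 0.528 in h2a.z, 2.28, 2.46 and 3.22 in the combined line, and 21.3, 18.04 and 17.7 in Col. All 9 libraries of the other genotypes lay far below the 3 Col libraries and the h2a.z range covered that of the combined line and overlapped h3.3kd. The log2 fold change was -1.83 ± 0.40 (SE), adjusted p = 0.00655 in h3.3kd and -2.45 ± 0.40 (SE), adjusted p = 0.000639 in h2a.z. It was -2.46 ± 0.40 (SE), adjusted p = 0.000653 in the combined line. AGP24 (AT5G40730) had 23.4, 16.8 and 44.3 TPM in h3.3kd, 56.8, 60.4 and 42.9 in h2a.z, 22.3, 19.2 and 23.8 in the combined line, and 101, 53.6 and 86.6 in Col. Its h3.3kd and combined-line libraries lay below Col without overlap, and h2a.z overlapped Col. Its log2 fold change was -1.54 ± 0.29 (SE), adjusted p = 0.00286 in h3.3kd and -1.80 ± 0.29 (SE), adjusted p = 0.000664 in the combined line.

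AGP22 (AT5G53250) had 13.8, 15.3 and 28.3 TPM in h3.3kd, 49.5, 28.6 and 25.8 in h2a.z, 12.4, 9.81 and 17.1 in the combined line, and 61.8, 33.1 and 36.8 in Col. The lines with lowered H3.3 lay below Col. On the log2 scale its fold change was -1.65 ± 0.31 (SE), adjusted p = 0.00204 in the combined line. In h3.3kd the adjusted p was 0.0193, and that call ended when Col 1 (0.09) or h3.3kd 1 (0.062) was left out, in a fit of those genotypes alone (0.073), without Col 1 and h3.3kd 2 together (0.12) and with the block and those genotypes alone (0.051), with adjusted p from 0.00779 to 0.123 over the 22 alternatives. AGP41 (AT5G24105) averaged 3.94 TPM in h3.3kd and 9.18 in Col, with an adjusted p of 0.0136 in h3.3kd. The AGP41 call ended when Col 1 (0.052) or h3.3kd 3 (0.056) was left out, in a fit of those genotypes alone (0.096) and with the block and those genotypes alone (0.11), with adjusted p from 0.0015 to 0.106 over the 22 alternatives. AGP20 (AT3G61640) had 15.7, 17.8 and 19.01 TPM in h3.3kd and 44.6, 22.2 and 26.1 TPM in Col, with Col 1 the highest. Its call (adjusted p = 0.0455) ended in 16 of 22 alternatives (0.0231 to 0.19), among them each library left out except Col 2 and h2a.z 1. Its log2 fold change was -0.73, and -0.44 without Col 1. AGP16 (AT2G46330) ranged from 111 to 362 TPM and AGP40 (AT3G20865) from 2.13 to 5.86 TPM, and neither was called against Col. AGP16 was called lower in h3.3kd with the replicate block (adjusted p = 0.0291).

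The chimeric AGP30 (AT2G33790), known from root and seed germination phenotypes, was low in all genotypes. It had 0.171, 2.05 and 1.38 TPM in h3.3kd, 0.128, 0 and 0 in h2a.z, 0.611, 0.403 and 0.264 in the combined line, and 5.11, 5.57 and 8.09 in Col, with h2a.z 2 and h2a.z 3 listed at 0. Every Col library exceeded all 9 others. This gave a log2 fold change of -1.81 ± 0.31 (SE), adjusted p = 0.00154 in h3.3kd and -2.78 ± 0.31 (SE), adjusted p = 2.76e-05 in h2a.z. In the combined line it was -2.33 ± 0.31 (SE), adjusted p = 0.000137. AGP30 reached 1 TPM in 5 of 12 libraries and passed the filter only through Col, where it was high. Its falls are counted among the members lower than Col, but nothing beyond the levels is read from them. AGP31 (AT1G28290), a wall protein that binds pectin, was far more abundant, with 161, 144 and 183 TPM in h3.3kd, 326, 408 and 322 in h2a.z, 201, 207 and 210.1 in the combined line, and 241, 396 and 355 in Col. The h3.3kd and combined-line libraries lay below Col, and h2a.z overlapped it. AGP31 was at 49.2% of the Col mean in h3.3kd (adjusted p = 0.0014). Its adjusted p in the combined line was 0.0145, and that call ended when Col 2 (0.06), Col 3 (0.054) or combined-line library 1 (0.052) was left out and after median ratio rescaling (0.069), with adjusted p from 0.000324 to 0.0693 over the 21 alternatives.

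**Figure D3:**
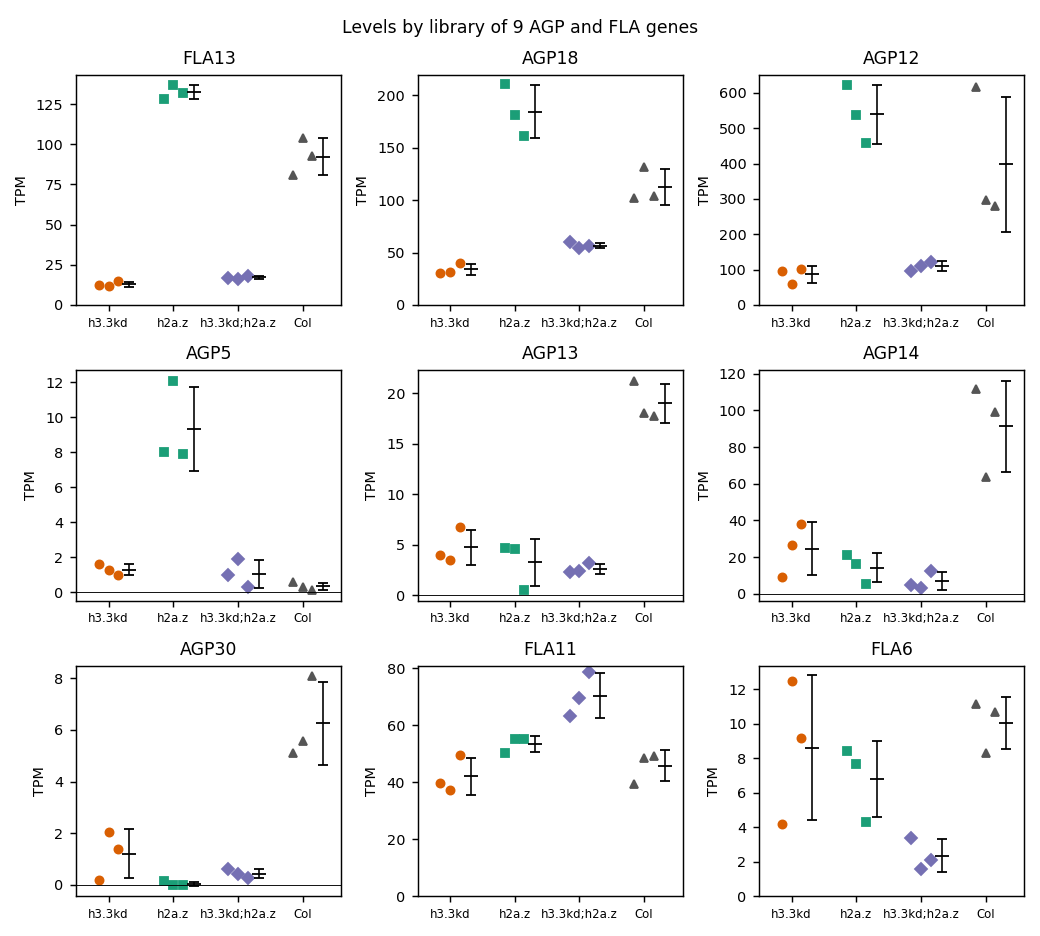
TPM of 9 members in every library, 1 panel per gene, with coloured points for libraries and black marks for the mean ± SD (n = 3) of each genotype. AGP13, AGP14 and AGP30 are high in Col alone among the 4 genotypes plotted, AGP5 is high in h2a.z, FLA11 is highest and FLA6 lowest in h3.3kd;h2a.z, and FLA13, AGP18 and AGP12 are low in h3.3kd and h3.3kd;h2a.z.

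Set against h2a.z, the combined line differed in the H2A.Z genes as well as in H3.3. The H2A.Z sum was 80.82 to 97.43 TPM in the combined line and 32.92 to 37.38 in h2a.z, with AT1G52740 higher by 1.41 (log2 fold change, adjusted p = 0.000313), so the comparison is not of H3.3 alone. Of 38 members, 21 (55.3%) fell and 0 rose, against 19.3% and 5.34% of all genes, with a median log2 fold change of -0.78 over the members and -0.15 over all genes. At an unadjusted p under 0.05 limma gave 24 lower and 2 higher. The count ranged from 17 to 26 with 1 library left out. All genes split into 1065 higher and 3851 lower, against 2512 and 2473 after quantile normalization and 1880 and 3092 after median ratio rescaling. Members were 2 higher and 19 lower under quantile normalization and 1 higher and 19 lower under median ratio rescaling. FLA13 had the largest value at -2.88 ± 0.13 (SE), adjusted p = 9.03e-09. AGP5, at 0.961, 1.90 and 0.311 TPM in the combined line and 7.99, 12.1 and 7.89 in h2a.z, followed at -2.38 ± 0.29 (SE), adjusted p = 4.26e-05. AGP12 came next at -2.27 ± 0.27 (SE), adjusted p = 3.31e-05. The lysine-rich AGP18 stood at -1.68 ± 0.15 (SE), adjusted p = 2.62e-06. AGP3, AGP2 and AGP7 had -1.73 (adjusted p = 0.00411), -1.70 (adjusted p = 0.000796) and -1.58 (adjusted p = 9.6e-06). For FLA9, AGP15 and AGP22 the values were -1.35 (adjusted p = 1.04e-05), -1.35 (adjusted p = 2.64e-05) and -1.31 (adjusted p = 0.00657). AGP13, AGP14 and AGP30 were not called here, with values of -0.01, -0.93 and 0.45. Of 17 root markers 10 fell and 0 rose in this comparison (14 lower and 0 higher at an unadjusted p under 0.05 in limma), and their part in the members' values was not tested.

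Set against h3.3kd, AGP18 and FLA11 (5.26%) rose in the combined line and FLA6 (2.63%) fell, beside 2.43% and 1.83% of all genes. At an unadjusted p under 0.05 limma gave 12 higher and 2 lower, with a median of 0.25 over the members and 0.01 over all genes. AGP18 had 59.6, 54.2 and 56.1 TPM in the combined line and 30.9, 31.4 and 39.8 in h3.3kd, and the log2 fold change was 0.73 ± 0.15 (SE), adjusted p = 0.0106. FLA11 had 63.2, 69.4 and 78.8 TPM against 39.6, 37.2 and 49.5 in h3.3kd, and the value was 0.74 ± 0.14 (SE), adjusted p = 0.00908. FLA6 had 3.38, 1.55 and 2.11 TPM against 4.15, 12.5 and 9.16 in h3.3kd, at -1.45 ± 0.33 (SE), adjusted p = 0.0219. None of the 3 calls held throughout. The AGP18 call ended when combined-line library 1 (0.054) was left out, with adjusted p from 0.0086 to 0.0536 over the 21 alternatives. That of FLA11 ended when combined-line library 3 (0.057) was left out and in a fit of those genotypes alone (0.057), with adjusted p from 0.00472 to 0.057 over the 21 alternatives. That of FLA6 ended when combined-line library 2 (0.11), combined-line library 3 (0.082), h3.3kd 2 (0.052) or h3.3kd 3 (0.084) was left out and in a fit of those genotypes alone (0.13), with adjusted p from 0.00287 to 0.128 over the 21 alternatives. The count was 1 to 5 with 1 library left out and 10 without Col 1 and h3.3kd 2 together. That setting added AGP41, FLA1, FLA2, FLA10, FLA15, FLA16 and FLA18, each higher in the combined line.

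Between h3.3kd and h2a.z, 24 of 38 members (63.2%) were lower in h3.3kd and 1 (2.63%) was higher, against 24.7% and 9.4% of all genes. Over all genes 1874 were higher and 4921 lower, and these counts were 3575 and 3224 after quantile normalization and 3013 and 4003 after median ratio rescaling, with 23 and 22 members lower and 1 higher under each. The median log2 fold change was -1.01 over the members and -0.17 over all genes. FLA13 was the most different at -3.27 ± 0.13 (SE), adjusted p = 1.68e-09, before AGP12 at -2.66 ± 0.27 (SE), adjusted p = 4.62e-06 and AGP18 at -2.40 ± 0.15 (SE), adjusted p = 4.52e-08. AGP5 stood at -2.15 ± 0.29 (SE), adjusted p = 5.47e-05. FLA2 had -1.85 (adjusted p = 7.73e-06) and FLA9 -1.79 (adjusted p = 4.23e-07). AGP41, AGP7, AGP25 and AGP2 had -1.57 (adjusted p = 0.000458), -1.55 (adjusted p = 6.03e-06), -1.45 (adjusted p = 0.000128) and -1.44 (adjusted p = 0.00169). The member higher in h3.3kd was AGP30, at 0.97 ± 0.31 (SE), adjusted p = 0.0256, and that call ended when h2a.z 2 (0.07), h2a.z 3 (0.07), h3.3kd 2 (0.09) or h3.3kd 3 (0.085) was left out, in a fit of those genotypes alone (0.07) and without Col 1 and h3.3kd 2 together (0.088), with adjusted p from 0.00148 to 0.0897 over the 21 alternatives. AGP30 had 0.128, 0 and 0 TPM in h2a.z. It reached the level for testing only through Col, which is outside this comparison, and nothing is read from its value. Of 17 root markers 10 were lower in h3.3kd and 0 higher (12 lower and 0 higher at an unadjusted p under 0.05 in limma), and their part was not tested.

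The interaction tested the difference of the combined line from h2a.z, minus that of h3.3kd from Col. The H2A.Z gene AT1G52740 itself had an interaction of 1.71 (adjusted p = 0.00729). One member passed in each direction (2.63% each), against 0.637% of all genes higher and 1.85% lower. The classical AGP5 had an interaction of -3.15 ± 0.41 (SE), adjusted p = 0.00065, made up of -2.38 for the combined line over h2a.z and 0.78 for h3.3kd over Col. AGP30 had 2.26 ± 0.44 (SE), adjusted p = 0.0125, with 0.45 for the combined line over h2a.z and -1.81 for h3.3kd over Col. Its h2a.z libraries had 0.128, 0 and 0 TPM, so a further fall from that level could not be measured and nothing is read from this value. AGP13 had the next positive value at 1.83 and was not called (adjusted p = 0.12). For FLA13 the interaction was -0.13 and for AGP12 -0.14, neither called (adjusted p = 0.831 and 0.92).

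The classes differed in level. Summed over their members, FLAs had 926.96 to 1146.7 TPM in h3.3kd, 2074.2 to 2219.5 in h2a.z, 1203.1 to 1402.3 in the combined line and 1386.5 to 2175.2 in Col. AG peptides had 678.76 to 781.77 TPM in h3.3kd, 1524.9 to 1997.1 in h2a.z, 687.29 to 762.11 in the combined line and 1310.1 to 2121.2 in Col. Classical AGPs had 478.58 to 654.36 TPM in h3.3kd, 1052 to 1260 in h2a.z, 579.92 to 625.93 in the combined line and 833.32 to 1187.8 in Col. Lysine-rich AGPs had 57.017 to 74.866 TPM in h3.3kd, 217.89 to 271.24 in h2a.z, 88.923 to 93.097 in the combined line and 136.06 to 172.29 in Col. Chimeric AGPs had 146.48 to 184.38 TPM in h3.3kd, 322.08 to 408.49 in h2a.z, 201.23 to 210.34 in the combined line and 246.59 to 402.06 in Col. In every class the h3.3kd libraries lay below every Col library. The FLA sum of the combined line overlapped that of Col 1, while its other class sums lay below Col. In h2a.z the lysine-rich sum lay above Col, and the other class sums overlapped Col.

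**Figure D4:**
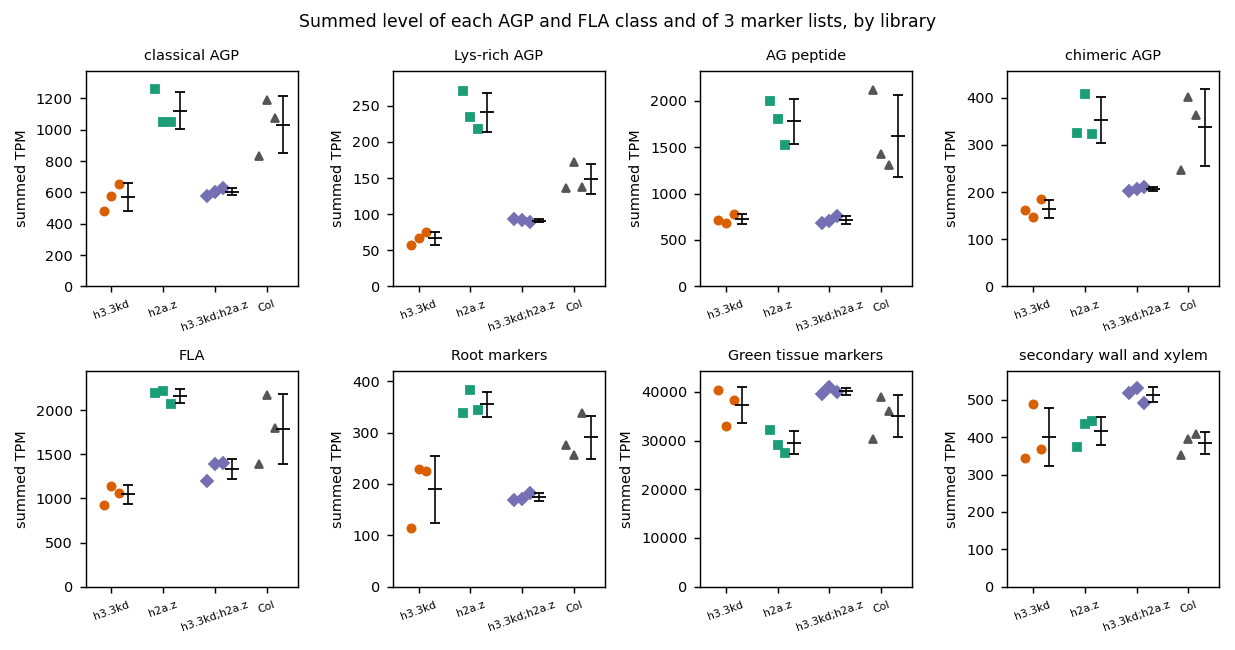
Summed TPM of 5 AGP and FLA classes and of 3 marker lists in every library, with black marks for the mean ± SD (n = 3). The class sums of h3.3kd lie below Col, root marker sums are 113.66 to 229.85 TPM in h3.3kd and 257.27 to 338.3 TPM in Col, and green tissue sums overlap between h3.3kd and Col.

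Of 21 genes for enzymes that build the sugar chains, 2 fell and 0 rose in h3.3kd, 2 rose and 2 fell in h2a.z, and 2 fell and 0 rose in h3.3kd;h2a.z, each against Col. Among all genes 11.9% fell and 5.41% rose in h3.3kd, 10.5% rose and 4.56% fell in h2a.z, and 12.6% fell and 6.17% rose in the combined line. With 1 library left out the count lower was 0 to 2 in h3.3kd (0 without Col 3 or h3.3kd 1), 0 to 2 in h2a.z and 1 to 3 in the combined line. At an unadjusted p under 0.05 limma gave 3 lower and 1 higher in h3.3kd, 3 of each in h2a.z, and 6 lower and 2 higher in the combined line. AT1G67330, annotated as a glucuronoxylan 4-O-methyltransferase-like protein (DUF579), had 13.7, 17.2 and 25.7 TPM in h3.3kd, 60.8, 62.4 and 61.8 in h2a.z, 16.8, 16.4 and 19.0 in the combined line, and 24.5, 36.3 and 40.2 in Col. All h2a.z libraries lay above Col and all combined-line libraries below it, while h3.3kd overlapped Col. Its log2 fold change was 0.88 in h2a.z (adjusted p = 0.00999) and -0.89 in the combined line (adjusted p = 0.00898). In h3.3kd it was -0.82 (adjusted p = 0.0163), a call that ended without Col 2 (0.052), without Col 3 (0.065), without h3.3kd 1 (0.054) and in a fit of those genotypes alone (0.12). FUT4, a fucosyltransferase gene, averaged 3.20 TPM in h3.3kd, 14.7 in h2a.z, 4.07 in the combined line and 6.10 in Col, and rose in h2a.z by 1.15 (log2 fold change, adjusted p = 0.00429). Its h3.3kd call (-0.81, adjusted p = 0.0332) ended in 9 of 22 alternatives (0.00492 to 0.172), among them Col 1, Col 3, h3.3kd 1 or h3.3kd 2 left out. Of 5 prolyl 4-hydroxylase genes tested, whose enzymes make the hydroxyproline to which the chains are attached, none was called against Col in limma, and 1 was lower in the combined line at an unadjusted p under 0.05. Of 4 sugar nucleotide epimerase genes, UGE1 rose by 0.69 in h3.3kd (adjusted p = 0.0298) and by 0.80 in the combined line (adjusted p = 0.0128), where UGE2 and RHD1 fell (adjusted p = 0.0184 and 0.0418). The UGE1 call in h3.3kd ended without Col 1 (0.085), Col 2 (0.11) or h3.3kd 3 (0.12) and in a fit of those genotypes alone (0.13), and in the combined line without Col 2 or combined-line libraries 1 or 3 (0.0563). UGE2 was lost without Col 1 or combined-line libraries 1 or 3 (at most 0.0844) and after quantile normalization (0.065), and RHD1 without any single Col library, h2a.z 2, h2a.z 3 or combined-line libraries 2 or 3 (at most 0.171), with no filter (0.056), after quantile normalization (0.07) and without Col 1 and h3.3kd 2 together (0.067). Of 5 GPI anchor genes, AT5G14850 fell in h3.3kd (adjusted p = 0.0469), a call that ended in 18 of 22 alternatives (0.0473 to 0.269), among them each library left out except h3.3kd 1. Of 7 genes for primary wall cellulose, none was called against Col in limma, and at an unadjusted p under 0.05 there were 2 lower in h3.3kd, 1 higher in h2a.z and 2 lower in the combined line. The calls lower in h3.3kd were 4 without h3.3kd 2, 1 without Col 1, 1 with the replicate block and 5 without Col 1 and h3.3kd 2 together. For the combined line the calls were 2 without h3.3kd 2, 1 each without Col 1, without h3.3kd 1 and with the block, and 3 without Col 1 and h3.3kd 2 together. In h2a.z 1 was called higher without h3.3kd 1, without h3.3kd 2, with the block, after median ratio rescaling or in a fit of those genotypes alone, and 1 each way without Col 1 and h3.3kd 2 together.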

How the data were processed

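RNA sequencing covered 12 libraries, 3 for each of h3.3kd, h2a.z, h3.3kd;h2a.z and Col. What the authors deposited is 1 table of TPM values per gene, a unit scaled by gene length and by the library's total. Per the submitters' processing notes the tools were fastp 0.20.1, HISAT2 2.1.10, HTSeq 0.11.2 and DESeq2 1.26.0 with build TAIR10. The sources used here give no gene lengths, counting mode or strand setting, so overlapping or near-identical genes could share reads. Columns without a sample numbered 0. A RefSeq table (TAIR10.1) gave the names, for 23235 identifiers in all and for each of the 40 members.

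The 19937 genes that reached 1 TPM in 3 or more libraries were analysed on the log2(TPM + 1) scale. One limma 3.58.1 model of the 4 genotypes (eBayes with trend, two-sided) gave 7 contrasts, with Benjamini-Hochberg adjustment across every tested gene. The scripts were tested on simulated data. Models ran in R 4.3.3, tables and figures in Python 3.11.15 (pandas 2.3.3, numpy 2.4.6, matplotlib 3.10.9). Full statistics went to at most 10 called members per comparison, largest change first, and members outside this rule are given by levels, percent of Col or p alone. Of each pathway or marker list, genes with the 3 smallest adjusted p in a comparison could be named.

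The members, the gene lists and the tests were chosen with earlier results of these data known. Deviations of same-numbered h3.3kd and Col libraries correlated at 0.314, 0.221 and 0.115. Other pairs of genotypes gave -0.176 to 0.158. The main fit had no block, so its h3.3kd values and p-values are unpaired. The pairing of h3.3kd and Col was taken from the data and not from the labels, and enters only where a block is named. Alternatives were other pseudocounts (0.1 and 0.5), no filter, median ratio rescaling, quantile normalization, a replicate block, a fit of the compared genotypes alone, robust eBayes and each library left out. Leaving out Col 1 and h3.3kd 2 together, and the block with h3.3kd and Col as the fitted genotypes, were added after seeing the data.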

Additional observations from a re-analysis of the deposited data

Results flagged for a closer look

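Among the members, 2 were flagged because the test of the difference itself passed: the combined line against h2a.z differed from h3.3kd against Col. AGP5 (AT1G35230) had an interaction of -3.15 (adjusted p = 0.00065 in limma), which stayed between -5.02 and -2.87 over the alternatives, with adjusted p of 0.000312 to 0.0054. AGP30 (AT2G33790) had an interaction of 2.26 (adjusted p = 0.0125), which stayed between 1.86 and 4.66, with adjusted p of 0.00448 to 0.0411. Both genes are low. AGP30 reached 1 TPM in 5 of 12 libraries and passed the filter only through Col, where it was high. It had 0.128, 0 and 0 TPM in h2a.z, so a fall below h2a.z could not be measured and nothing is read from its value.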

How the results depend on the processing

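Of 104 calls on members over the 7 comparisons, 74 passed under every alternative run and 30 ended under at least 1, of which 29 ended when a single library was left out. No call changed sign. The count of members called ranged from 18 to 24 in h3.3kd, 6 to 9 in h2a.z and 17 to 21 in h3.3kd;h2a.z against Col with 1 library left out, and from 16 to 26, 9 to 11 and 20 to 23 under the other alternatives. Against h3.3kd the combined line had 3 calls, 1 in a fit of those genotypes alone, 10 without Col 1 and h3.3kd 2 together, and 1 to 5 with 1 library left out. The interaction had 2 calls, 5 without Col 1 and h3.3kd 2 together, and 2 to 3 with 1 library left out. The cause of these differences was not tested. With the replicate block the counts were 26 in h3.3kd, 9 in h2a.z and 22 in h3.3kd;h2a.z against Col, 23 and 3 for the combined line against h2a.z and h3.3kd, 27 between h3.3kd and h2a.z, and 2 for the interaction, and the block with h3.3kd and Col as the fitted genotypes gave 18. Only 3 libraries per genotype and an unknown depth limit what low members can show.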

Other observations

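Family members outside the 40 loci were low, except SOS5, also called FLA4 and known in salt response and root growth. SOS5 had 26.3, 71.3 and 43.2 TPM in h3.3kd, 68.6, 55.1 and 59.3 in h2a.z, 60.4, 70.2 and 60.9 in the combined line, and 36.0, 60.3 and 48.8 in Col, and was not called in any genotype against Col. Of 11 such genes 8 were in the table and 6 were tested. In h3.3kd 1 of the 6 rose and 1 fell, against 5.41% and 11.9% of all genes, with a median log2 fold change of -0.20. The combined line had 1 higher and 0 lower, against 6.17% and 12.6% of all genes, with a median of 0.07. The fall of the 40 listed members is therefore not stated for the whole family. FLA5 rose in h2a.z, with 2.89, 2.17 and 2.41 TPM there and 0.209, 0 and 0.834 in Col (log2 fold change 1.42, adjusted p = 0.00341). The h2a.z libraries of FLA5 alone met the level for testing and no Col library did, so nothing beyond the levels is read from this call. AGP11, known from pollen, had 1.49, 9.90 and 1.28 TPM in h3.3kd and 0.143, 0 and 0 in Col, with h3.3kd 2 far above the others (log2 fold change 1.92, adjusted p = 0.0151). That call ended in a fit of those genotypes alone (0.078, within 0.00205 to 0.0784), and the h3.3kd libraries by themselves met the level for testing. In the combined line AGP11 had 1.49 (adjusted p = 0.045), a call that ended under 9 of 21 alternatives, among them each Col or h2a.z library and combined-line libraries 1 and 2 left out. Of the 4 pollen markers, which include AGP11, VGD1 and VGDH1 were listed at 0 in 11 and 10 libraries. AT1G15190 fell in h3.3kd (log2 fold change -0.79, adjusted p = 0.0278), a call that ended under 8 of 22 alternatives, among them each Col library left out and h3.3kd 2 left out.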
